A study of Homo sapiens with 2 samples.

Results

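Among untreated cells labelled MOLT4, the 96 cells with the highest share of UMIs from MMP1, S100A9, S100A8 and SPP1 were described against the remaining 867 cells of the same library. A UMI marks 1 captured RNA molecule. The cells were taken from 963 barcodes that had at least 200 detected genes, at most 20% mitochondrially encoded UMIs and at least 4400 UMIs, and the 96 are the top 10% of these by the summed share of the 4 transcripts. Levels of these 4 genes therefore chose the cells and are given below as a description only. MOLT4 is a permanent T-cell leukemia line, derived from an acute lymphoblastic disease. The study profiled a library of untreated control cells and a library exposed for 48 h to SP11 at 0.8 µM, a small molecule that it describes as an inhibitor of the chaperone HSP90. Each group had 1 library, so cells were not treated as replicates, no test between groups was possible, and every interval below covers counting error only.

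MMP1 encodes interstitial collagenase, a secreted enzyme that cleaves fibrillar collagen. S100A8 and S100A9 pair to form calprotectin, an abundant calcium-binding protein of neutrophils and monocytes, and SPP1 encodes osteopontin, a matrix and cytokine-like protein made by macrophages among other cells. In GENCODE 44 on GRCh38, MMP1 lies at chr11:102789401-102798160, S100A9 at chr1:153357854-153361023, S100A8 at chr1:153390032-153391073 in the same cluster of S100 genes, and SPP1 at chr4:87975667-87983532. Granulocyte precursors are known for another set of transcripts, which encode the proteases stored in azurophil granules, such as ELANE, PRTN3 and CTSG.

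The defining markers of macrophages were absent or nearly absent in the 96 cells, so these are named here by the rule and not as macrophages. CD14, the lipopolysaccharide co-receptor, had 2 UMIs in the 96 cells and 1 in the remaining cells. CSF1R, the receptor for macrophage colony-stimulating factor, had 1 UMI in the 96 cells and 8 in the rest. CD163, MRC1 and C1QC, which mark tissue macrophages, had 0 UMIs in both, and 0 UMIs allow up to 1.65 CPM (UMIs scaled to the same total in each group) in the 96 cells and 0.172 CPM in the rest. Of 32 monocyte and macrophage markers listed, 7 had 0 UMIs in the 96 cells, 4 of them also in the rest, and 10 reached the 200 UMIs required for a ratio. The label MOLT4 was not borne out by most of the T-lineage transcripts listed either. CD3D had 0 UMIs, and TRAC had 1 UMI in the 96 cells and 2 in the rest. Of 31 T-lineage markers 18 were at 0 over the 96 cells and the rest together, and 24 in the 96 cells. The list summed to 43 UMIs in the 96 cells and 434 in the rest. TRGC2, a T-cell receptor gamma constant gene outside that list, had 44 UMIs in the 96 cells and 278 in the rest. Its log2 ratio of levels in the 96 cells over the rest was 0.61 (0.11 to 1.07). The fibroblast, epithelial, erythroid and megakaryocyte lists summed to 8, 4, 11 and 0 UMIs in the 96 cells and to 27, 46, 99 and 13 in the rest. On these few UMIs the fibroblast list lay at 4.41 CPM in the 96 cells and 1.55 CPM in the rest. The collagen and matrix transcripts COL1A2, DCN and LUM had 0 UMIs in both, so they do not set the 96 cells apart. The endothelial list summed to 107 UMIs in the 96 cells, 106 of them of PECAM1.

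The 96 cells were not 1 even population. They held 1586 of the 1710 UMIs of the 4 genes in the library, and 1369 of these lay in 7 cells. The 7 cells thus carried 86.3% of the UMIs of the 96 and 80.1% of all UMIs of the 4 genes, and the highest cell alone carried 27.8%. Each of the 7 had at least 48 UMIs of the 4 genes, whereas no other member had more than 12, and no cell lay between. Of the other 89 members, 10 had 6 to 12 UMIs, 40 had 2 to 5 and 39 had 1. A split at 20 UMIs was drawn after these values were seen, and it is used below to show which values rest on the 7 cells.

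**Figure D1:**
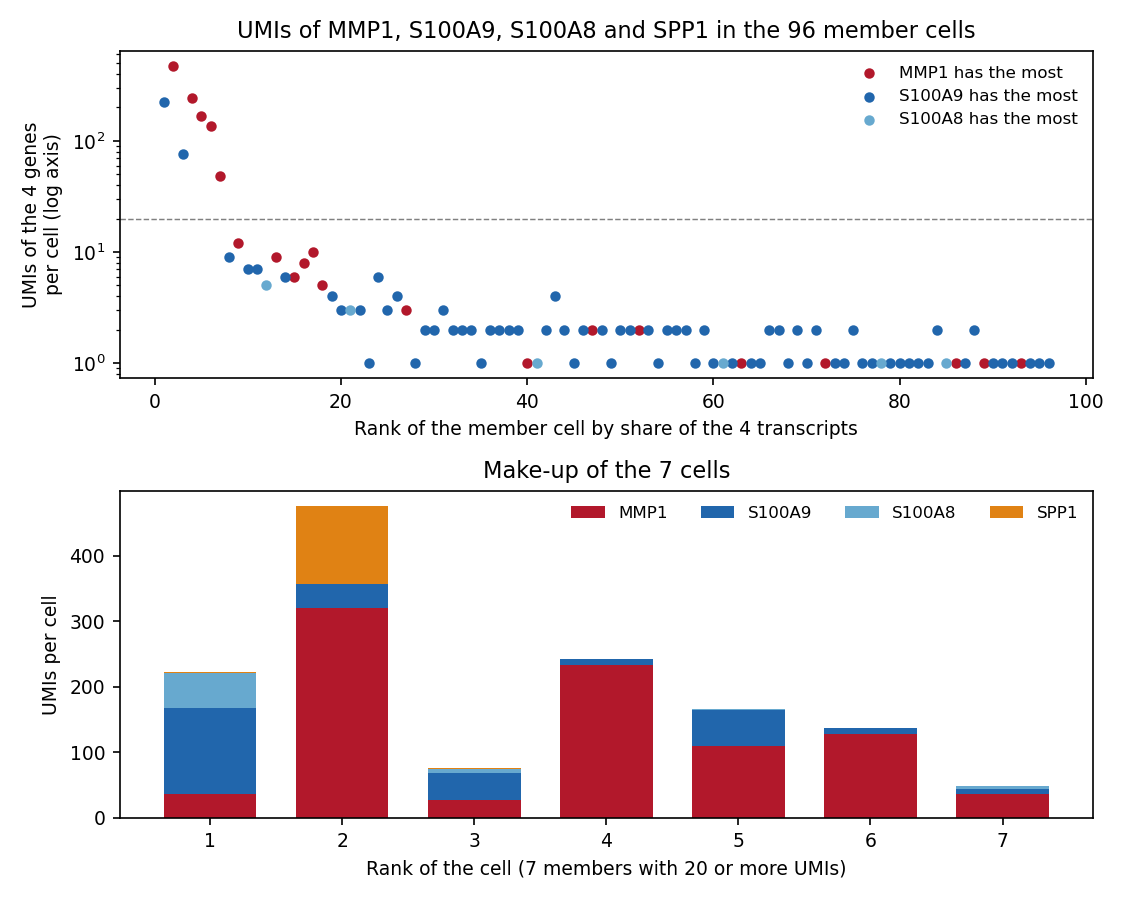
Top, UMIs of the 4 genes per cell on a log axis for the 96 member cells in rank order, coloured by the gene with the most UMIs, with a dashed line at 20 UMIs. Bottom, UMIs of each gene in the 7 cells above the line; MMP1 makes up most of cells 2, 4, 5, 6 and 7, and S100A9 most of cells 1 and 3.

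MMP1 was present in each of the 7 cells, with 36, 321, 27, 233, 109, 128 and 37 UMIs from rank 1 to rank 7. S100A9 followed with 132, 36, 41, 9, 55, 9 and 7 UMIs in the same order. The proportion of the 2 genes was thus not shared between cells, and the cell with the most S100A9 had one of the lower MMP1 counts. S100A8, the partner of S100A9, had 53, 0, 6, 0, 3, 0 and 4 UMIs, so 3 of the 7 cells held S100A9 with no S100A8 captured. SPP1 was close to a single-cell signal, with 119 of its 125 UMIs in the cell at rank 2 and 2 each in the cells at ranks 1 and 3. The total UMIs of the 7 cells were 12590, 37119, 10296, 46552, 35386, 31241 and 11923, all within the 4507 to 77922 UMIs of the remaining cells.

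In the 89 other members S100A9 was the main reason for selection. Over all 96 cells, S100A9 had the most UMIs of the 4 genes in 70, MMP1 in 20 and S100A8 in 6, and 72 cells held UMIs of only 1 of the 4. The 89 cells held 146 UMIs of S100A9, 51 of MMP1, 20 of S100A8 and 0 of SPP1. Cells just inside and outside the threshold did not differ in kind. Ranks 95 and 96 had 59.27 and 59.21 CPM of the 4 genes, ranks 97 and 98 had 58.89 and 58.63 CPM, and each of these 4 cells held 1 UMI of S100A9. Among cells with 1 UMI, depth decided membership: members had at most 16888 UMIs in total, and the 116 such cells left in the rest had at least 16982. A lone UMI can also come from free RNA in a droplet. No cell type known to lack these genes was identified in the library, so the part of free RNA in the 39 members with 1 UMI was not tested.

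Because the same UMIs chose and described the cells, the UMIs of each cell were split at random into 2 parts of about equal size, and values were read from the part that did not choose. Both parts chose 33 of 96 cells in common, and all 7 high cells were in both choices. In the unused part, the chosen cells had 478 CPM of MMP1 (435 to 524), against 1.61 CPM (0.882 to 2.71) in the rest. Without the 7 cells the chosen set still had 18.6 CPM of MMP1 (10.6 to 30.2) and 36.0 CPM of S100A9 (24.5 to 51.1), against 10.7 CPM of S100A9 (8.65 to 13.1) in the rest. SPP1 had 0 UMIs in the unused part of the chosen cells without the 7. The choice was also repeated with 3 of the genes, after which the gene left out was read in cells thinned to 4400 UMIs each. MMP1 was then detected in 11.5% of chosen cells (5.86 to 19.6), in 4.49% of them without the 7 (1.24 to 11.1) and in 0.577% of the rest (0.188 to 1.34). S100A9 was detected in 17.7% of chosen cells (10.7 to 26.8), in 12.4% without the 7 (6.33 to 21.0) and in 4.15% of the rest (2.92 to 5.70). Without thinning, the same shares were 15.6%, 8.99% and 2.42% for MMP1 and 35.4%, 30.3% and 17.1% for S100A9. S100A8 and SPP1 were not detected in thinned chosen cells without the 7, where 0 of 89 cells allows a share of up to 4.06%. In all 963 thinned cells MMP1 and S100A9 were found together in 10 cells, where the product of their separate shares gives 0.881. At that depth MMP1 was detected in all 7 high cells and S100A9 in 6 of them, so most of these pairs came from the 7. Without thinning the genes were found together in 18 cells, 7 of them the high cells, and the product gives 6.80. Both genes belong to the rule.

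Other genes were compared between the 96 cells and the rest as the log2 ratio of CPM, over 8856 genes with 200 or more UMIs and without the genes of the rule. The threshold of 1.5-fold is a size and not a call. By that size 198 genes (2.24% of those compared) were higher in the 96 cells and 164 (1.85%) were lower, around a median log2 ratio of 0.01. The 95% counting interval excluded equality for 195 of the higher and 118 of the lower genes. In the 7 cells alone, 1677 genes (18.9%) were at least 1.5-fold higher than in the rest and 2679 (30.3%) at least 1.5-fold lower, and the interval excluded equality for 873 and 793 of them. Their summed depth of 185107 UMIs leaves many low counts, and 271 genes had 0 UMIs there. With those set to 3 UMIs, 2439 genes were lower, and the median log2 ratio in the 7 cells was -0.09 in place of -0.14. In the other 89 members 140 genes (1.58%) were higher and 165 (1.86%) lower. Of the 198 genes higher in all 96 cells, 119 were also at least 1.5-fold higher in the 89 alone, and 0 had a log2 ratio at or below 0 there. Only 9 of the 198 had at least 50% of their member UMIs in the 7 cells, which held 10.2% of all member UMIs. With the normalization factors of TMM in place of plain totals, 139 genes were higher and 249 lower over the 96 cells, and with those of DESeq2 137 and 250, since both lowered the median log2 ratio to -0.06. Leaving out the cell with the most UMIs of each gene on each side left 127 higher genes and 316 lower ones.

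CXCL8 had the highest ratio of the 8856 genes compared, and with CCL2 it was 1 of the 2 chemokine and cytokine genes, of 6 compared, past 1.5-fold. CXCL8, which encodes the neutrophil attractant interleukin-8, lay at 197 CPM in the 96 cells and 6.19 CPM in the rest, a log2 ratio of 4.99 (4.68 to 5.32). The 7 cells held 7, 56, 14, 19, 24, 203 and 0 UMIs, so 56.7% of the member UMIs of CXCL8 came from the cell at rank 6 and the cell at rank 7 had none. Without the top cells the log2 ratio was 3.94, and in the 89 other members it was 1.79 (1.20 to 2.36). CCL2, a monocyte attractant, had a log2 ratio of 3.45 (3.10 to 3.80) over the 96 cells and 1.95 (1.44 to 2.44) over the 89. Of the 48 UMIs of CCL2 in the 89, the cell at rank 31 held 17 and the cell at rank 73 held 16. The ratio over the 89 thus rests mostly on these cells. In the 7 cells CCL2 had 8, 60, 10, 12, 9, 4 and 0 UMIs, again with none at rank 7. CHI3L1, a secreted chitinase-like glycoprotein, had 9, 5, 2, 6, 12, 19 and 0 UMIs in them and a log2 ratio of 2.12 (1.79 to 2.45) over the 96 cells, with 1.36 (0.93 to 1.77) over the 89. The other 4 chemokine and cytokine genes compared were CCL5, IL18, TGFB1 and VEGFA. CCL5, a T-cell and monocyte attractant, had a log2 ratio of 0.51 (0.29 to 0.72), TGFB1 had 0.18 (-0.07 to 0.41) and VEGFA had 0.18 (-0.14 to 0.48), all under 1.5-fold.

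S100A9 chose most members, and the summed levels of CXCL8 and CHI3L1 were higher in them. The genes were only partly found in the same cells. Without thinning, each of the 7 cells held S100A9, while CXCL8 and CHI3L1 were each found in 6. Of the 89 other members 76 held S100A9, 33 held CHI3L1 and 13 held CXCL8. The sequences just before the start sites of S100A9, CXCL8 and CHI3L1 are shown side by side. Each is the 250 bases before the RefSeq start site on GRCh38.p14, read along the gene, at chr1:153357604-153357853 on the plus strand for S100A9, chr4:73740319-73740568 on the plus strand for CXCL8 and chr1:203186705-203186954 on the minus strand for CHI3L1. Capitals mark matches to 4 motifs searched on both strands. For the factor AP-1 the letters were TGANTCA. The kappa-B motif of the factor NF-kB was written as GGNNNTTCC, and the motif of C/EBP proteins as TTGCNNAA. The core promoter box bound by TBP was written as TATAAA.
S100A9: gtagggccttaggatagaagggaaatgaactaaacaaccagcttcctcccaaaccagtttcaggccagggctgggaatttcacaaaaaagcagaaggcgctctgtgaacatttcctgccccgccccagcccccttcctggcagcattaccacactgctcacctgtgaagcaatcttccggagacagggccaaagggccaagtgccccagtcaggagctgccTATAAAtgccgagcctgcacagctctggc
CXCL8: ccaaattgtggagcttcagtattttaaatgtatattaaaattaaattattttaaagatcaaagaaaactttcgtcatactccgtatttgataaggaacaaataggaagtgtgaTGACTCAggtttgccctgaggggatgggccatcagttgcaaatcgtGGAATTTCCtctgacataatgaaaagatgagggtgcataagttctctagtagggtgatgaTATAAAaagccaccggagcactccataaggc
CHI3L1: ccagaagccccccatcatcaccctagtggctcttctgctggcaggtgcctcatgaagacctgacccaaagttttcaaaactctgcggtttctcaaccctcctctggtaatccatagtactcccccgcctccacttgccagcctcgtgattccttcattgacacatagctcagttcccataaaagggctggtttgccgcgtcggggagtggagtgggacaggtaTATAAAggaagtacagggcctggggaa
The CXCL8 window held an AP-1 match from 137 to 131 bases before the start, GGAATTTCC from 91 to 83 bases before it, which fits the NF-kB letters on both strands over the same bases, and a match of that box from 31 to 26 bases before it. The windows of S100A9 and CHI3L1 held only the box match, from 29 to 24 and from 27 to 22 bases before the start. Of 35116 RefSeq promoter windows of that length, 6.57% held the AP-1 letters, 17.1% those of NF-kB, 9.05% those of C/EBP and 10.7% those of the box. A match of letters is a description and shows no binding.

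Ferritin heavy chain separated the 7 cells from every other cell. FTH1, which encodes the iron-oxidising subunit of the iron store, lay at 3484 CPM in the 96 cells and 632 CPM in the rest, a log2 ratio of 2.46 (2.42 to 2.51). The 7 cells had 518, 777, 307, 725, 473, 518 and 181 UMIs of FTH1. Per cell this was a lowest value of 13367 CPM, a median of 16581 CPM and a highest value of 41144 CPM in the 7, against 178, 744 and 10365 CPM in the other 89 members and 0, 493 and 6339 CPM in the rest. No cell outside the 7 reached their lowest value, although FTH1 was no part of the rule. The 89 were also shifted, with a log2 ratio of 1.46 (1.40 to 1.52), while overlapping the rest over nearly the whole range. FTL, the light chain, was high in all cells and differed less, at a median of 26127 CPM per cell in the 7 cells, 13726 CPM in the 89 and 11945 CPM in the rest. Counts of FTH1 can include reads of its processed pseudogenes, which the deposited counts cannot separate.

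**Figure D2:**
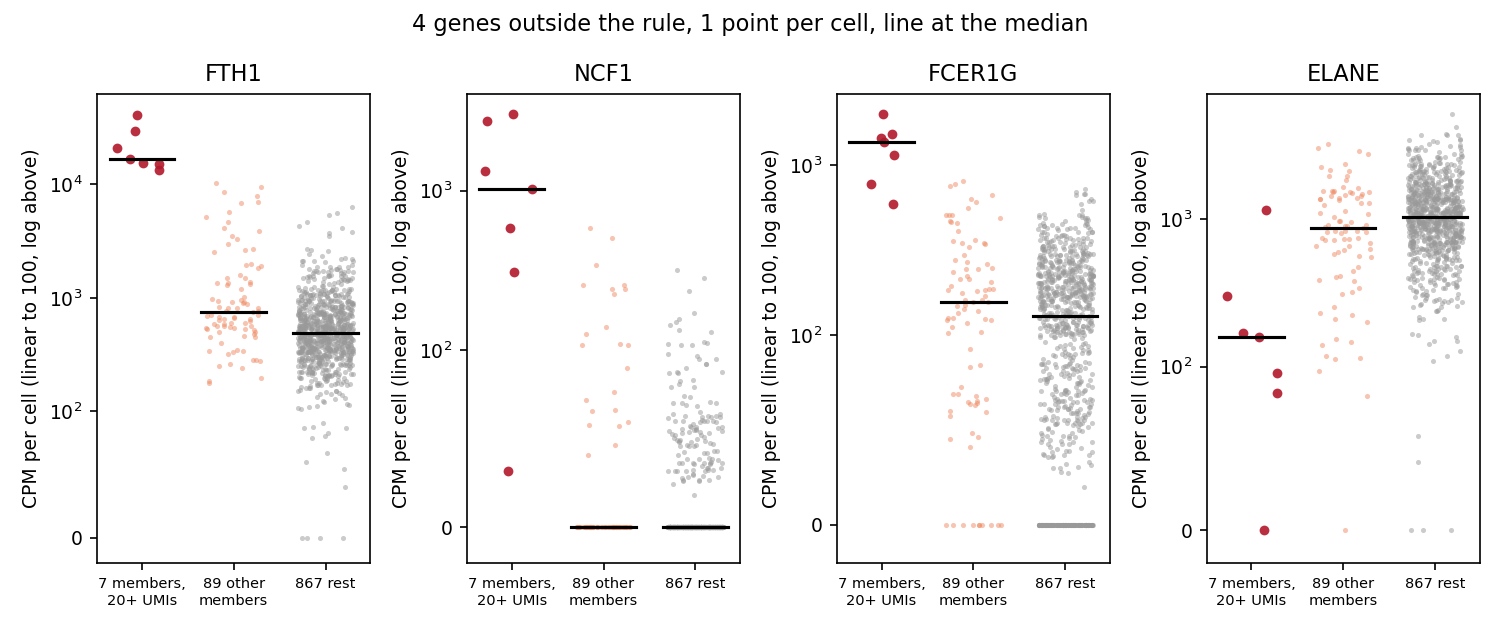
CPM per cell (linear to 100, log above) of FTH1, NCF1, FCER1G and ELANE in the 7 members with 20 or more UMIs of the 4 rule genes, the 89 other members and the 867 remaining cells, with 1 point per cell and a line at the median. The 7 cells lie above all others for FTH1 (lowest 13367 CPM), and 6 of them lie below the median of the rest for ELANE (1031 CPM).

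NCF1, which encodes p47phox, the cytosolic organiser subunit of the phagocyte NADPH oxidase, lay at 145 CPM in the 96 cells and 10.0 CPM in the rest, a log2 ratio of 3.86 (3.58 to 4.14). Its UMIs in the 7 cells were 38, 38, 28, 62, 11, 1 and 7, and 4 of these cells lay at or above 1024 CPM, which no cell of the rest reached. The 89 others had a log2 ratio of 2.27 (1.87 to 2.66) for NCF1. This was the largest there among the genes named here outside the rule that had 200 or more UMIs. NCF1 has near-identical pseudogene copies, so its counts are uncertain in origin.

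The receptor and adaptor transcripts FCER1G, TYROBP and PLAUR had larger ratios in the 7 cells than in the 89. FCER1G, the gamma chain that signals for Fc receptors, had 25, 56, 14, 53, 51, 24 and 7 UMIs in the 7 cells and log2 ratios of 2.97 (2.77 to 3.17) there and 0.51 (0.35 to 0.67) in the 89. TYROBP, the adaptor DAP12, had 11, 3, 4, 6, 12, 0 and 0 UMIs, with log2 ratios of 3.36 (2.82 to 3.86) and 0.51 (0.02 to 0.97). PLAUR, the urokinase receptor, had 4, 35, 5, 9, 31, 9 and 1 UMIs, with 3.43 (3.11 to 3.74) in the 7 and 0.23 (-0.10 to 0.55) in the 89. LYZ, lysozyme, had a log2 ratio of 0.69 (0.31 to 1.04) in the 7 and 1.00 (0.88 to 1.11) in the 89. Of the 720 UMIs of LYZ in the 89, 98 lay in the cell at rank 11 and 80 in the cell at rank 26. Its median per cell was 253 CPM in the 89 and 180 CPM in the rest. MARCO, a scavenger receptor of macrophages, had -0.97 (-4.02 to 0.90) in the 7, on 2 UMIs, and 0.73 in the 89. VIM, the intermediate filament vimentin, had 3.21 (2.95 to 3.47) and 0.63 (0.41 to 0.85). Of the 10 monocyte and macrophage genes compared, 5 were at least 1.5-fold higher in the 96 cells (TYROBP, FCER1G, LYZ, FCGR2A and MARCO), 0 were lower, and the median log2 ratio was 0.55, beside 0.01 over all genes. AIF1, a further gene of that list, had a log2 ratio of -0.03 (-0.17 to 0.11). Among 15 genes of Fc receptor and ITAM signalling, 5 were higher and 0 lower over the 96 cells, with a median of 0.21, and the kinase LYN stood at 0.57. In the 7 cells 8 of the 15 were higher and 4 lower, beside 18.9% and 30.3% of all genes. There BTK, a kinase of the same signalling, had a log2 ratio of -1.28 (-2.73 to -0.16).

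Of 14 targets and regulators of NF-kB, 6 were at least 1.5-fold higher in the 96 cells, where 2.24% of all genes were, and 6 in the 89, where 1.58% were. None was lower by that size in either, and the medians were 0.55 and 0.37. TNFAIP3, the ubiquitin-editing enzyme A20 that limits NF-kB signalling, had a log2 ratio of 1.38 (0.96 to 1.79) over the 96 cells and 1.05 (0.56 to 1.52) over the 89. SOD2, mitochondrial superoxide dismutase, had 1.08 (0.94 to 1.22) and 0.62 (0.46 to 0.79), and in the 7 cells it held 7, 30, 7, 19, 43, 56 and 16 UMIs. ICAM1, a leukocyte adhesion molecule, had 1.01 (0.62 to 1.39) and 0.80 (0.36 to 1.22). NFKBIE, which encodes an inhibitor of NF-kB, stood at 0.75 over the 96 cells, RELB, which encodes a subunit, at 0.87 and the inhibitor gene NFKBIA at 0.20. At the low end of the list were CD83, a surface protein of activated antigen-presenting cells, at -0.33 (-0.91 to 0.20) and REL, a further subunit, at -0.02 (-0.30 to 0.25). Of 10 integrin and adhesion genes 5 were higher and 0 lower, among them both chains of the integrin LFA-1, ITGAL at 0.93 (0.52 to 1.31) and ITGB2 at 0.85. None of 5 AP-1 and immediate early genes reached 1.5-fold over the 96 cells. In the 7 cells 4 of them were higher, beside 18.9% of all genes, and JUN had a log2 ratio of 2.32 (1.57 to 2.99).

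Of 22 lysosomal genes 4 were past 1.5-fold upward and 0 downward in the 96 cells, with a median of 0.27. In the 7 cells 13 were higher and 0 lower, with a median of 0.85, where 18.9% of all genes were higher and 30.3% lower. CTSH, a lysosomal cysteine protease, had a log2 ratio of 0.85 (0.64 to 1.05), and ATP6V1H, a subunit of the proton pump, had 0.68 (0.46 to 0.89). FUCA1, a lysosomal fucosidase named for its ratio, had 9, 5, 5, 7, 15, 15 and 7 UMIs in the 7 cells and a log2 ratio of 1.64 (1.41 to 1.87) over the 96, with 1.29 (1.02 to 1.55) over the 89. Of 13 heme, ferritin and NRF2 genes 5 were higher and 0 lower over the 96 cells, including SLC7A11, the cystine transporter, at 0.82 (0.59 to 1.05), PGD of the pentose phosphate pathway at 0.80 and the autophagy receptor SQSTM1 at 0.70. Further genes that the ranking named were KYNU, kynureninase of tryptophan breakdown, at 1.64 (1.19 to 2.07), SAMSN1, an adaptor of leukocytes, at 1.54 (1.14 to 1.93), and NRP1, the co-receptor neuropilin-1, at 1.44 (0.99 to 1.87). ANXA2, annexin A2, had the highest ratio of the list of other S100 genes and their partners, at 1.03 (0.89 to 1.17). For NRP1 the 89 other members had 0.52 (-0.12 to 1.10), so its difference was not detectable without the 7 cells at this depth.

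Several transcripts of the highest members came almost wholly from 1 cell each. CCL4 had 38 UMIs in the 96 cells, all of them in the cell at rank 5, and 2 in the rest. CCL3 had 45 of its 55 member UMIs in the same cell, with 21 in the rest. TDO2, tryptophan dioxygenase, had 61 UMIs there and 0 in the other 6 cells. IL1B, interleukin-1 beta, had 27 UMIs in the cell at rank 2 and 1 at rank 3. C5AR1, the receptor of complement C5a, had 12 of 14 member UMIs at rank 5. Counts of CCL3 and CCL4 can be shared with their near-identical gene copies. ITGAX, the integrin chain CD11c, was spread more widely and had 27 UMIs over 6 of the 7 cells, 24 in the 89 and 124 in the rest. MARCO had 2 UMIs in the 7, 57 in the 89 and 368 in the rest. These genes share no order across the 7 cells, and no single cell held the highest count of all of them.

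Levels followed the number of UMIs of the 4 genes for several of these transcripts. FTH1 lay at 626 CPM in cells with 0 UMIs of the 4 genes, 660 CPM in non-members with 1 UMI, 986 CPM in members with 1 UMI, 1468 CPM in members with 2 to 5, 4208 CPM in members with 6 to 12 and 18903 CPM in the 7 cells. NCF1 lay at 10.3, 9.02, 18.7, 32.0, 167 and 999 CPM over the same steps, FUCA1 at 37.7, 35.1, 58.1, 73.4, 219 and 340 CPM, and SOD2 at 134, 130, 163, 184, 374 and 962 CPM. CXCL8 did not follow the steps in order, at 4.13, 15.4, 1.87, 22.5, 59.6 and 1745 CPM, and the step of members with 1 UMI held 1 UMI of it. LYZ was highest one step below the top, at 220, 236, 294, 436, 775 and 357 CPM. Of its 195 UMIs in that step, however, 98 lay in the cell at rank 11 and 59 in the cell at rank 16. The steps hold 747, 116, 39, 40, 10 and 7 cells, and their median depths were 17815, 22993.5, 14617, 21089.5, 22546.5 and 31241 UMIs. Depth thus differed between the steps, and its part in the levels was not tested.

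**Figure D3:**
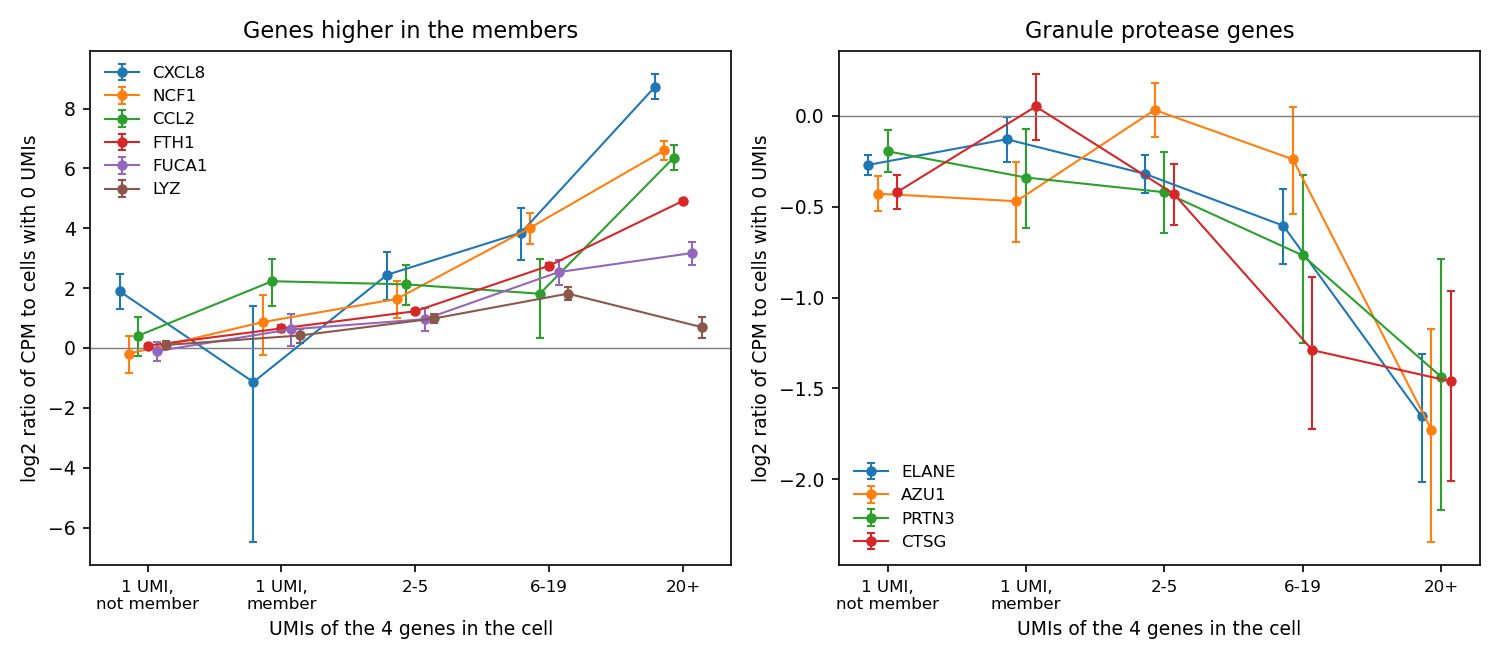
Log2 ratio of CPM to the cells with 0 UMIs of the 4 genes, by the number of those UMIs in the cell, for genes higher in the members (left) and for granule protease genes (right), with 95% counting intervals. FTH1 and NCF1 climb over the member steps to 4.92 and 6.60, while ELANE reaches -1.65 in the 7 cells.

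Of 11 granule genes 9 were at least 1.5-fold lower in the 7 cells and LYZ was higher, beside 30.3% of all genes lower and 18.9% higher. ELANE, neutrophil elastase, had 2, 43, 0, 14, 6, 3 and 1 UMIs there, a median of 159 CPM per cell against 874 CPM in the other 89 members and 1031 CPM in the rest. The cell at rank 2 was the exception with 1158 CPM, above the median of the rest. Log2 ratios in the 7 cells were -1.61 (-1.97 to -1.26) for ELANE, -1.66 (-2.27 to -1.10) for AZU1, -1.39 (-2.13 to -0.75) for PRTN3 and -1.39 (-1.94 to -0.89) for CTSG, all encoding azurophil granule proteins. MS4A3, a membrane protein of granulocyte precursors, had 0 UMIs in the 7, which allows up to 16.2 CPM, and lay at 31.6 CPM in the rest. In the 89 others 1 of the 11 was lower by that size, MS4A3 at -0.64 (-1.19 to -0.13), 1 was higher, LYZ at 1.00, and the median was -0.13. Log2 ratios in the 89 were -0.25 (-0.32 to -0.17) for ELANE, -0.09 (-0.20 to 0.03) for AZU1, -0.40 (-0.57 to -0.24) for PRTN3 and -0.28 (-0.40 to -0.16) for CTSG. MYB, a transcription factor of immature blood cells, had -1.03 (-1.58 to -0.53) in the 7 and -0.19 (-0.32 to -0.06) in the 89. The 13 myeloid transcription factor genes held 0 of at least 1.5-fold in either direction over the 96 cells.

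Of 21 S phase genes 19 were at least 1.5-fold lower in the 7 cells and 0 higher, with a median log2 ratio of -1.003, beside -0.14 over all genes. Of 22 MYC targets and ribosome biogenesis genes 18 were lower and 1 higher, with a median of -1.04. Of 28 ribosomal protein genes 10 were lower, a share near the 30.3% of all genes that were, with a median of -0.53. In the 89 others the medians of these 3 lists were -0.06, -0.02 and -0.08. Of 9 replication-dependent histone genes 5 were at least 1.5-fold lower over all 96 cells, with a median of -0.64, and the median was -0.51 in the 89. In the 7 cells the median was -2.19, or -1.19 with the 2 histone genes at 0 UMIs set to 3 UMIs. HIST1H4C, a histone H4 gene, had 30 UMIs in the 7 cells, 25 of them in the cell at rank 4. Histone genes have near-identical copies, which makes the origin of single counts uncertain.

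Phase calls of single cells, made with Seurat from S and G2M genes, differed as well. Called S phase cells made up 18.8% of the 96 (11.5 to 28.0) and 35.5% of the rest (32.3 to 38.8), and called G1 cells 42.7% (32.7 to 53.2) and 30.1% (27.1 to 33.3). With every cell thinned to 4400 UMIs, the S phase shares were 17.7% (10.7 to 26.8) and 29.2% (26.2 to 32.3), and the G1 shares 47.9% (37.6 to 58.4) and 37.3% (34.0 to 40.6), with intervals that overlap for both phases. Of the 7 cells 5 were called G1, 2 G2M and 0 S. Free RNA enters such calls, and its part was not tested. Among cells called S phase alone, with 18 members and none of the 7, the log2 ratio of FTH1 was 1.13, while those of NCF1, CCL2 and CHI3L1 turned to -1.99, -0.48 and -1.21 and that of ELANE to 0.40. The 96 cells had a median of 16642.5 UMIs and 8.54% mitochondrial UMIs, against 18525 UMIs and 9.12% in the rest, so neither quantity set them far apart. Scrublet, which scores barcodes that may hold more than 1 cell, called 1 of the 96 cells and 44 of the rest. It called none of the 7, whose scores were 0.0172 to 0.162 beside a median of 0.107 in the rest. The 96 cells were spread over all 6 clusters of the library, as 38 of 326, 14 of 227, 17 of 142, 17 of 140, 9 of 124 and 1 of 4 cells. The 7 lay in the first of these clusters (5 cells) and the fifth (2 cells), and formed no cluster of their own at this setting. No other setting was tried, so whether so few cells could form 1 was not tested. The leading genes of the first cluster included SPP1, CCL4, IL1B and CCL3, whose member UMIs lay mostly in single cells of the 7. A total of 114 barcodes occurred in both libraries, among them those of 10 members, and whether RNA was carried over was not tested.

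**Figure D4:**
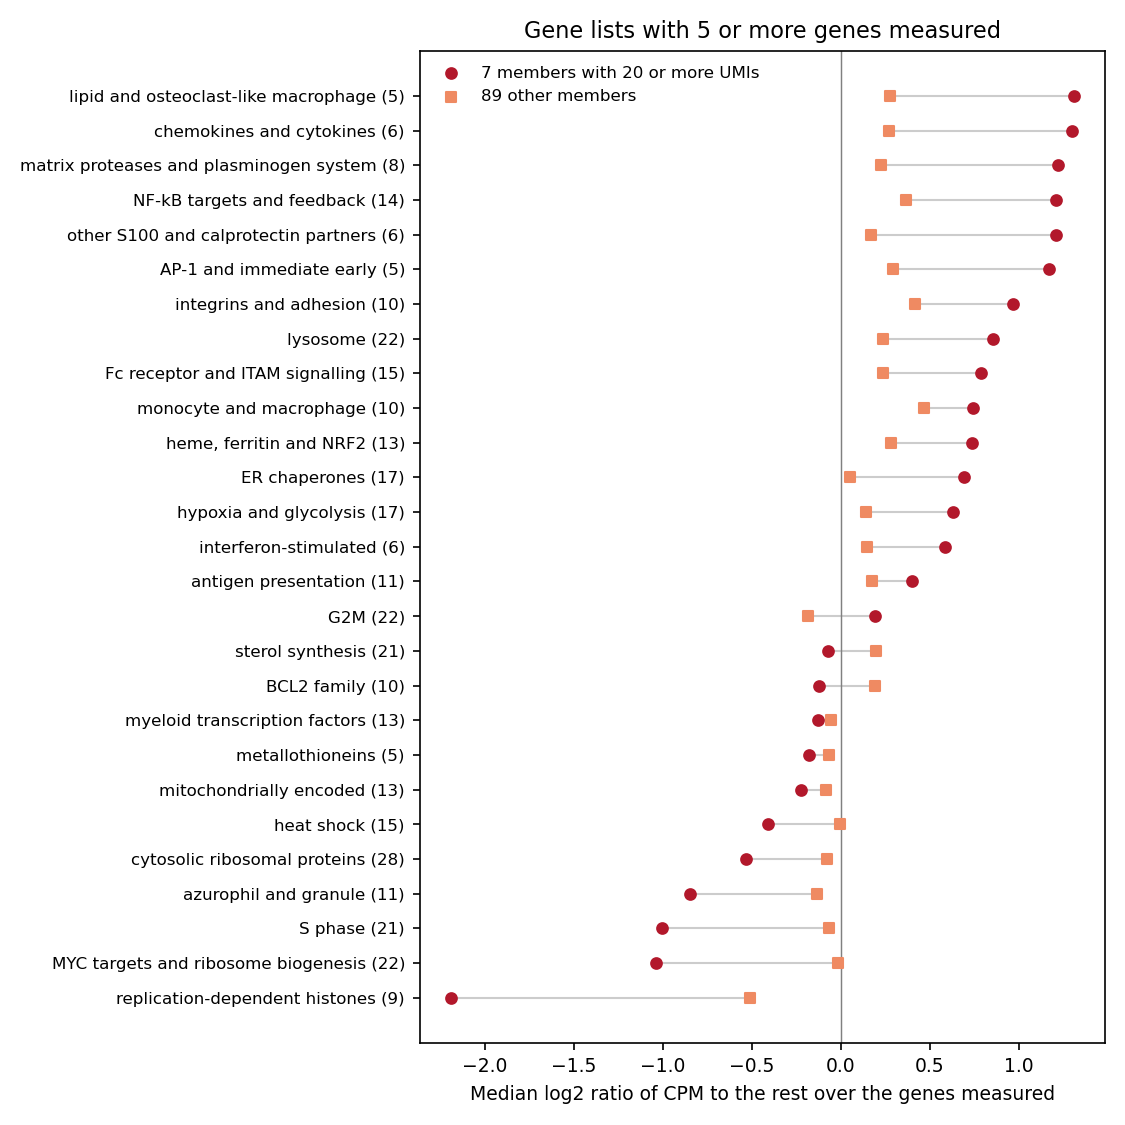
Median log2 ratio of CPM to the rest for each gene list with at least 5 genes compared (number in brackets), for the 7 members with 20 or more UMIs (circles) and the 89 other members (squares). The 89 show the same sign as the 7 except for G2M, sterol synthesis and the BCL2 family; medians in the 7 and the 89 were 1.21 and 0.37 for NF-kB targets and -2.19 and -0.51 for histones.

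Apart from the heme, ferritin and NRF2 list given above, few genes of the stress and metabolic lists passed 1.5-fold over the 96 cells. Over all genes 2.24% were higher there by that size and 1.85% lower. None of 15 heat shock genes passed 1.5-fold over the 96 cells, with a median of -0.04, and 1 of 17 chaperone genes of the endoplasmic reticulum did, CRELD2 at 0.70 (0.27 to 1.10). None of 21 sterol synthesis genes passed, with a median of 0.18, nor any of 6 interferon-stimulated genes (0.22), 11 antigen presentation genes (0.23) or 5 metallothionein genes (-0.11). Of 17 hypoxia and glycolysis genes 2 were higher, NDRG1 at 0.73 (0.46 to 0.99) and DDIT4 at 0.81 (0.44 to 1.17). In the 7 cells alone the medians were 0.69 for the chaperones of the endoplasmic reticulum (9 of 17 higher and 2 lower), 0.63 for hypoxia and glycolysis (9 of 17 and 2), 0.58 for the interferon-stimulated genes (3 of 6 and 1) and -0.41 for heat shock (1 of 15 and 6). Over all genes 18.9% were higher and 30.3% lower in the 7 cells, with a median of -0.14. Among 10 genes of the BCL2 family, 1 was higher, the pro-apoptotic BAK1 at 0.84 (0.26 to 1.38), and BCL2 itself stood at -0.36 (-0.61 to -0.11). The 164 lower genes had a median of 19 UMIs in the 96 cells, and those named by the ranking were mostly of that depth. SERPINB10, a serpin of bone marrow cells, had 5 UMIs in the 96 cells and 221 in the rest, a log2 ratio of -2.20 (-3.84 to -0.96), and RPP40, an RNase P subunit, had 15 and 337, a ratio of -1.22 (-2.08 to -0.48).

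The SP11 library was set beside the control library with the same rule, as values without a test. The 4 transcripts were found in more SP11 cells. At 4400 UMIs a cell, 29.6% of SP11 cells (26.4 to 33.0) and 6.65% of control cells (5.16 to 8.41) held a UMI of any of the 4, and without thinning 49.4% and 22.4% did. At least 20 UMIs were found in 35 of 769 SP11 cells and in the 7 of 963 control cells. S100A8 lay at 214 CPM in SP11 and 4.98 CPM in control, S100A9 at 136 and 27.9 CPM, MMP1 at 94.9 and 49.4 CPM, and SPP1 at 0.215 and 6.49 CPM. The top 10% in SP11 were 77 cells, in which S100A8 had the most UMIs in 47, S100A9 in 17 and MMP1 in 13, so the rule picked cells by another gene there. Of all SP11 cells 354, or 46.0%, lay at or above the lowest control member.

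Ratios of other genes within the SP11 library had largely the same sign. Of 5978 genes compared there, 289 (4.83%) were at least 1.5-fold higher in the 77 cells than in the other SP11 cells and 764 (12.8%) lower. Among the 198 genes higher in the control members, 88 had enough UMIs in SP11, and 55 of these were at least 1.5-fold higher there, 79 were above 0 and 0 were at least 1.5-fold lower. The 55 genes are 62.5% of the 88 and 19.03% of the 289. FTH1 had log2 ratios of 2.36 (2.32 to 2.39) in SP11 and 2.46 in control, NCF1 2.50 (2.25 to 2.75) and 3.86, CCL2 1.79 (1.65 to 1.92) and 3.45, and CXCL8 1.72 (1.46 to 1.98) and 4.99. TYROBP was further apart in SP11, at 3.13 (2.92 to 3.33) and 1.22, as was FUCA1, at 2.52 (2.33 to 2.71) and 1.64. TNFAIP3 was near 0 in SP11, at 0.16 (-0.33 to 0.61), against 1.38 in control. ELANE was lower in both, at -0.99 (-1.16 to -0.82) and -0.34. Of the 164 lower genes 35 were compared in SP11, where 12 were at least 1.5-fold lower and 2 higher. Both libraries were ranked by the same 4 genes, so the list of chosen cells differs but the rule does not.

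**Figure D5:**
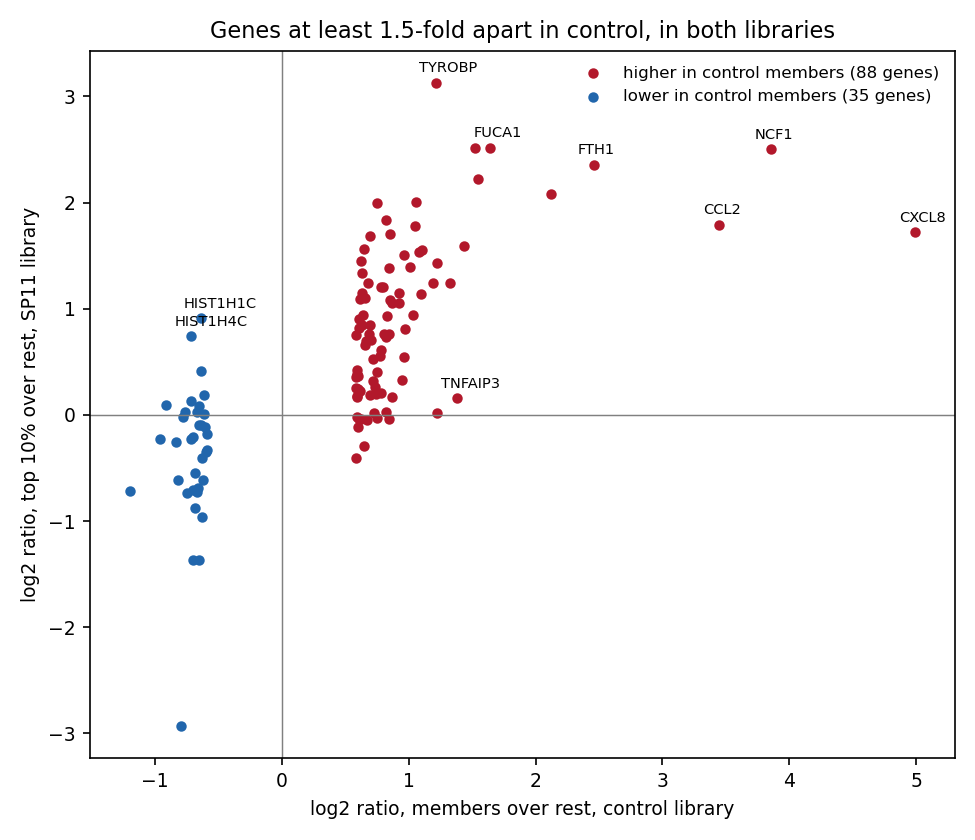
Log2 ratio of members over the rest in the control library (x axis) and of the top 10% over the rest in the SP11 library (y axis), 1 point per gene, for genes at least 1.5-fold apart in control and compared in both. Of the 88 genes higher in control, 79 lie above 0 in SP11; HIST1H1C and HIST1H4C are lower in control and higher in SP11.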

How the data were processed

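Single-cell RNA-seq was measured in 1 control and 1 SP11 library. The authors deposited UMI counts per gene and barcode, not normalized, made with Cell Ranger 7.1.0 per the file headers on GRCh38 (hg38) per the submitters' notes; the sources used here do not say whether intron reads were counted. The matrices hold 36601 genes. Of 1076 control barcodes 1053 passed the gene and mitochondrial filters, 963 of these had 4400 or more UMIs, and 769 of 864 SP11 barcodes were kept alike. The study kept fewer control cells than its stated filters leave. Its methods mention replicates, and whether cultures were pooled is not stated.

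The 96 highest cells were taken by the share of the 4 transcripts, with ties broken by more UMIs. The cells, gene lists and rule for named genes were chosen with earlier results of these data known. UMIs were summed over cells, and the CPM ratio carries an exact Clopper-Pearson 95% interval, a CPM an exact Poisson interval and a share an exact binomial interval, all for counting error only. Limits for 0 UMIs are 3 counts. Named genes are the 4 rule genes, the 15 highest and 10 lowest ratios without the top cells and the 5 highest other ratios. Up to 2 genes from each end of each list were also named, with granule, chemokine and macrophage genes of 100 CPM or more. Further list members, genes with few UMIs, TRGC2 and FTL were named after their values were seen. Clusters and phases used Seurat 5.3.0 in R 4.3.3 (2000 variable features, 10 components, resolution 0.5), and doublets, called with Scrublet in scanpy 1.11.5, were kept. The normalization factors of edgeR 4.0.16 (TMM) and DESeq2 1.42.0 were tried as alternatives, beside other member sets, depths, filters and phases. Ratios and intervals were tested on simulated data. Promoter sequences came from RefSeq (GRCh38.p14), which gave S100A9, CXCL8 and CHI3L1; MMP1, CCL2 and FTH1 were not matched.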

Additional observations from a re-analysis of the deposited data

Results flagged for a closer look

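Histone genes had ratios of opposite sign in the 2 libraries. HIST1H1C, a linker histone gene, had a log2 ratio of top cells over the rest of 0.91 (0.50 to 1.30) in SP11 and -0.64 (-0.89 to -0.40) in control, from 68 and 260 UMIs in SP11 and 145 and 2171 in control. HIST1H4C, a histone H4 gene, had 0.74 (0.68 to 0.81) in SP11 and -0.71 (-0.82 to -0.61) in control. The median of the replication-dependent histone list was 0.79 over 5 genes in SP11 and -0.64 over 9 genes in control. The difference between the libraries was not tested in any of these cases.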

How the results depend on the processing

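No paired analysis was possible because each group has 1 library. The main counts of genes at least 1.5-fold apart were 198 higher and 164 lower. They were 515 and 467 with the top 5% of cells, 55 and 21 with the top 20%, 114 and 84 with cells chosen without S100A9, 125 and 111 with cells ranked after thinning, 308 and 331 with choice and values from separate parts of the UMIs, 127 and 316 without the top cell of each gene, 323 and 316 with a mitochondrial maximum of 10%, 607 and 620 with a gene minimum of 50 UMIs, and 65 and 37 with one of 500. Within called phases they were 662 and 588 (G1), 594 and 1261 (S), and 440 and 534 (G2M). TMM and DESeq2 factors gave 249 and 250 lower genes. Alternatives chosen after seeing the data gave 1677 and 2679 for the 7 cells alone and 140 and 165 without them. Choosing without MMP1, S100A8 or SPP1, equal weight for cells, removal of Scrublet calls, a minimum of 10000 UMIs, totals without mitochondrial genes and leaving out the 5 top members kept both counts within 1.5 times. Among ratios at least 1.5-fold apart, those that changed sign were AC021851.2 (0.30) and KIF20A (0.18) without S100A9, KIF20A after thinning (0.36), FRG1-DT with separate parts (0.086), and, within S phase, NCF1 (-1.99), CCL2 (-0.48), CHI3L1 (-1.21), SYTL3 (-0.043), NRP1 (-0.49), DYSF (-0.60), SERPINB2 (-1.43), ITGAL (-0.39), NDRG1 (-0.067), KIF20A (0.031) and the median of the study's cluster 5 genes (-0.55). Of the smaller ratios, some of which changed sign under some setting, ELANE turned to 0.40 within S phase. The cause was not tested, and the S phase setting holds 18 members and none of the 7. Over 22 settings CXCL8 ranged over 1.79 to 8.14 and FTH1 over 1.13 to 4.90. A library of 963 cells with 7 high cells limits all of these values.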
